A study of Mus musculus with 21 samples.

Results

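Gata3, Bcl11b, Tcf7, Lef1, Runx1, Runx3, Ets1, Tox, Ikzf1 and Satb1 encode transcription and chromatin factors of the T lineage. Their expression was followed in EL4 cells, a mouse T lymphoma line of C57BL/6 origin, after a short hairpin against Ctcf. The 10 genes were taken by symbol from a gene table of 22119 rows and 21844 symbols. Each symbol had a single row, and the rows of Bcl11b, Runx1, Ets1, Ikzf1 and Satb1 join several RefSeq transcripts. The compared groups were poly(A) RNA libraries of EL4 cells with an shCTCF hairpin (n = 2) and with an shLuc hairpin, which targets luciferase (n = 2). Both groups are the same line with a hairpin, and the series design ties the knockdown to the question of how CTCF acts on enhancers and gene expression. The other 17 of the 21 samples were not used here. The labels name no separate cultures, clones or hairpin sequences, so the spread among the 4 libraries could be technical. Each p-value rests on that spread, with the variance of each gene drawn in part from the other tested genes.

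Commitment to the T lineage is driven by Notch signalling, which in thymic progenitors turns on Tcf7 and Gata3, and these in turn act upstream of Bcl11b, the factor that closes off other fates. Runx, Ets and Ikaros proteins bind many of the same enhancers, and in mouse thymocytes Bcl11b is known to be controlled by distant enhancers. CTCF is a zinc finger protein that, together with cohesin, anchors chromatin loops. EL4 cells are a transformed line past commitment, so the levels given here are those of mature-like tumour cells and not of thymic progenitors.

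Bcl11b was the only one of the 10 factors to pass the main test, at 65.6% of its shLuc level. Of all 9898 tested genes, 0.596% were called lower. All 9 tested factors had a negative log2 change, from -0.58 for Bcl11b to -0.10 for Tox. Lef1, Ets1 and Gata3 had 71.1%, 79.1% and 85.8% of their shLuc levels without passing. The calls depended on the test. Leaving out any library ended that of Bcl11b, and another test, on recovered reads, called Lef1 and Ets1 lower. Satb1 was close to undetected and was not tested.

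RefSeq promoters (assembly GRCm38.p6) of Gata3, Bcl11b and Lef1 are shown with the pentamer CCCTC marked. The pentamer is a short word linked to CTCF and is not the CTCF motif. Each window runs from 250 bases before to 50 after an annotated start, 5′ to 3′ on the strand of the gene. Capitals mark that pentamer on either strand.
Gata3, chr2:9878551-9878850, minus strand: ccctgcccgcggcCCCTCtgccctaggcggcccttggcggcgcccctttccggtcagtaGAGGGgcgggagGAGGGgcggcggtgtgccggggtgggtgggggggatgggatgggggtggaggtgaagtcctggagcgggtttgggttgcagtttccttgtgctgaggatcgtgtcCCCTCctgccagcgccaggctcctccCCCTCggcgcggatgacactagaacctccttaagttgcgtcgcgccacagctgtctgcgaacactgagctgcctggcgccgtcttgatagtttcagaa
Bcl11b, chr12:108003365-108003664, minus strand: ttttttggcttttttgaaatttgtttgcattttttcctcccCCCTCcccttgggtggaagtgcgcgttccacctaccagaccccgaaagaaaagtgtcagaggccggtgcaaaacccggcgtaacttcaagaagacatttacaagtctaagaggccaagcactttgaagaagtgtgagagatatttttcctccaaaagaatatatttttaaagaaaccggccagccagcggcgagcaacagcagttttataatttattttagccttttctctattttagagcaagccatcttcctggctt
Lef1, chr3:131110047-131110346, plus strand, the first of its 4 windows: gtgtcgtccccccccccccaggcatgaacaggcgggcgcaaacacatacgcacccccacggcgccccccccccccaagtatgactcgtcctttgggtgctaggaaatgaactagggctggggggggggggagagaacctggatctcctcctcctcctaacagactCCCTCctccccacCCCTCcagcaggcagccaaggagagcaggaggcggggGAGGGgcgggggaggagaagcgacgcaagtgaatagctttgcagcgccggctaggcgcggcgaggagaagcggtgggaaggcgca
The pentamer occurred at 5 places in the Gata3 window, 3 in this Lef1 window and 1 in the Bcl11b window, while the other Lef1 windows held 3, 0 and 0. The other Lef1 window with 3 starts at 131110073, overlaps the window shown and holds the same matches. RefSeq windows were at hand for 8 of the 10 factors, 19 in all. They are not all distinct, since windows of Lef1 overlap each other, as do windows of Satb1. Satb1, which was not tested, supplied 5 of the 19. CCCTC on either strand was present in 16 of the 19, against 66.0% of all 32851 windows. A longer pattern of 12 bases modelled on the core of the CTCF motif was present in 0 of the 19, against 2.43% of all windows. The windows of the factors had a median GC content of 63.7%, against 52.7% over all windows, and ranged from 43.0% to 81.3%. The Bcl11b window was the lowest of them, at 43.0%. A match describes letters and shows no bound site.

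The hairpin was checked first. Ctcf (NM_181322) had 26.5 and 26.4 RPKM, that is reads per kilobase of the gene relative to library depth, in the shCTCF libraries, against 49.0 and 50.9 RPKM in the shLuc libraries. The groups were far apart, and Ctcf stood at 53.0% of its shLuc level. Its log2 change was -0.89 (SE 0.08, adjusted p = 0.0075, limma with Benjamini-Hochberg adjustment over 9898 genes). Without either shLuc library Ctcf no longer passed (adjusted p = 0.15 in both cases, limma), with log2 changes of -0.92 and -0.86, nor did it pass without the filter on low values (adjusted p = 0.22). The libraries were shallow, at 4346709 and 5768562 reads for shCTCF and 5240361 and 6133045 reads for shLuc by the divisors recovered from the RPKM values.

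T cell identity was checked with marker lists. The summed RPKM of 7 T cell markers with a row of their own was 1370 and 1379 in the shCTCF libraries and 1615 and 1557 in the shLuc libraries. All 7 were tested and 0 passed, with 4 at an unadjusted p under 0.05 by limma, against 14.1% of all 9898 tested genes in either direction. Limma-voom on recovered reads called 2 of 6 lower, Thy1 and Cd5, against 2.18% of its 7555 genes. The CD3 chains Cd3d, Cd3e and Cd3g, which define the line as a T cell, had log2 changes of -0.03, 0.01 and -0.03. Thy1 averaged 483 ± 21.1 RPKM in shCTCF and 615 ± 35.4 RPKM in shLuc libraries, and Lat, the adaptor of the T cell receptor, 226 ± 9.43 RPKM in shCTCF and 264 ± 21.0 RPKM in shLuc libraries (SD, n = 2 each). In bulk RNA, fewer cells of a type and less RNA per cell cannot be told apart. Of 8 B cell markers, 1 was above the filter, Cd22 at 1.57 ± 0.398 RPKM in shCTCF and 2.57 ± 0.255 RPKM in shLuc. Below the filter, Blk went the other way, at 0.839 ± 0.00277 RPKM in shCTCF and 0.286 ± 0.0317 RPKM in shLuc. Blk rests on 9 and 12 reads in shCTCF and 4 and 4 reads in shLuc libraries. Cd79a was below 1 RPKM, and Pax5 and Ms4a1 were listed at 0 in all libraries. The B cell markers summed to 2.97 and 2.77 RPKM in shCTCF and 3.14 and 3.24 RPKM in shLuc libraries. The 9 myeloid markers summed to 6.94 and 5.37 RPKM in shCTCF and 4.31 and 5.53 RPKM in shLuc libraries, with Emr1 and Elane listed at 0. Among them Cd68, a lysosomal protein of macrophages, averaged 3.37 ± 0.393 RPKM in shCTCF and 1.58 ± 0.175 RPKM in shLuc libraries (adjusted p = 0.089), Itgam 2.05 ± 0.438 RPKM in shCTCF and 2.51 ± 0.838 RPKM in shLuc, and Lyz2 0.490 ± 0.230 RPKM in shCTCF and 0.412 ± 0.0719 RPKM in shLuc. Of the erythroid and fibroblast lists, 0 genes reached the filter, and each list summed to less than 1 RPKM in every library. The part of these sums in the results on the factors was not tested.

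Of the 9 tested factors, 1 fell and 0 rose, against 0.596% of all 9898 tested genes called lower and 0.697% called higher. A gene was tested where its mean RPKM over the 4 libraries was 1 or more, and called at an adjusted p under 0.05. At an unadjusted p under 0.05, 4 of the 9 (Bcl11b, Ets1, Lef1 and Gata3) were lower, against 5.93% of all tested genes. The shCTCF libraries lay wholly below the shLuc libraries for 7 of the 9, against 19.9% of all tested genes. Runx1 and Runx3 overlapped. The median log2 change of the 9 was -0.16, beside 0.01 over all tested genes, of which 46.7% had a negative change. Taken one library at a time against the shLuc mean, the median was -0.14 in shCTCF library 2 and -0.21 in shCTCF library 3. The 10 factors together summed to 1551 and 1485 RPKM in shCTCF libraries and to 1720 and 1669 RPKM in shLuc libraries. Most of that sum was Tcf7 and Ikzf1.

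**Figure D1:**
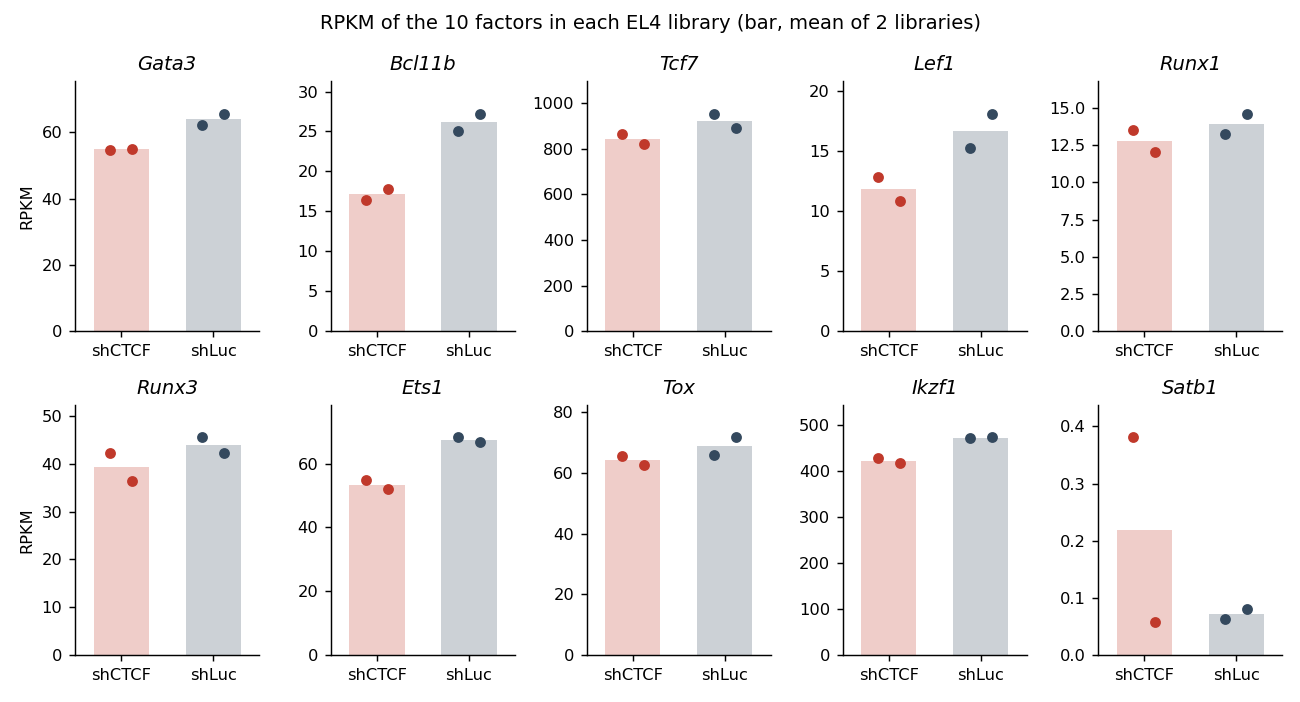
RPKM (vertical axis, from 0, its own scale in each panel) of the 10 factors in the shCTCF and shLuc libraries, as points for single libraries and bars for the mean of 2. The points of the groups are separate for 7 of the 9 tested factors and overlap for Runx1 and Runx3; Satb1 stays below 0.4 RPKM.

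The factors that install T cell identity were read first. Bcl11b (NM_021399 and NM_001079883), a zinc finger protein that holds cells to the T lineage, had 16.4 and 17.9 RPKM in the shCTCF libraries, against 25.1 and 27.2 RPKM in the shLuc libraries. Both shCTCF values lay well under both shLuc values. The means were 17.2 ± 0.998 RPKM in shCTCF and 26.2 ± 1.52 RPKM in shLuc libraries (SD, n = 2 each). The log2 change was -0.58 (SE 0.10, 95% interval -0.80 to -0.36), and it passed with limma (adjusted p = 0.035, Benjamini-Hochberg). Among tested genes, 1.25% had a more negative change. Leaving out any one of the 4 libraries ended the call while the change stayed between -0.64 and -0.52 (adjusted p from 0.093 to 0.28). The call was also lost without the filter on low values (adjusted p = 0.32) and without the variance trend (adjusted p = 0.084).

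Gata3 (NM_008091), the GATA factor needed for early T cell and T helper 2 development, had 54.8 and 54.9 RPKM in the shCTCF libraries and 62.3 and 65.6 RPKM in the shLuc libraries. The groups did not overlap, and the shCTCF libraries were nearly equal. These values rest on 766 and 1019 reads in shCTCF and 1049 and 1294 reads in shLuc libraries. The log2 change was -0.22 (SE 0.08, 95% interval -0.40 to -0.04) and did not pass (adjusted p = 0.25, limma). It did not pass under any of the 16 alternatives either, with a change between -0.25 and -0.18.

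Tcf7 and Lef1 encode the HMG-box proteins TCF-1 and LEF-1, which bind DNA and recruit beta-catenin or Groucho proteins. Tcf7 (NM_009331) had 862 and 821 RPKM in the shCTCF libraries, against 953 and 889.8 RPKM in the shLuc libraries. The groups were separate, but the gap between them was smaller than the gap within shLuc. It was the most abundant of the 10 factors and ranked 24 of the 9898 tested genes by mean RPKM. Its log2 change was -0.13 (SE 0.08, 95% interval -0.31 to 0.05, adjusted p = 0.53, limma). Lef1 (NM_010703) had 12.8 and 10.9 RPKM in the shCTCF libraries, against 15.2 and 18.1 RPKM in the shLuc libraries. The groups were separate, with the lowest value in shCTCF library 3 and the highest in shLuc library 3. Lef1 rests on few reads, 137 and 154 in shCTCF and 196 and 273 in shLuc libraries. Its log2 change was -0.46 (SE 0.12, 95% interval -0.74 to -0.17) and did not pass (adjusted p = 0.14, limma). On the per-length scale the levels of the pair lay far apart, with Tcf7 and Lef1 means of 842 and 11.8 RPKM in shCTCF and 921 and 16.7 RPKM in shLuc libraries.

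**Figure D2:**
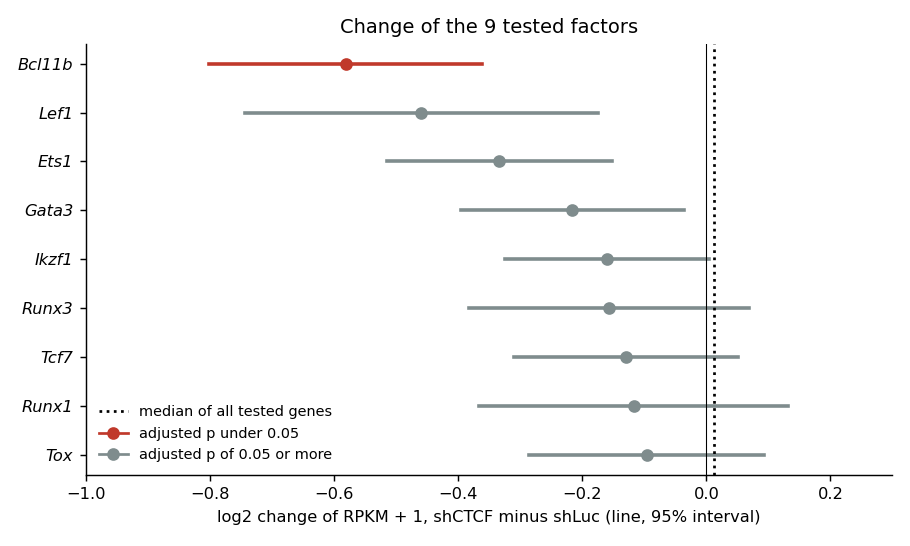
Fitted log2 change of RPKM + 1, shCTCF minus shLuc (horizontal axis), of the 9 tested factors, as points with 95% intervals from limma, and the median of all tested genes as a dotted line. Bcl11b, at -0.58, is the only one drawn in red for an adjusted p under 0.05, and the intervals of Lef1, Ets1 and Gata3 also lie below 0.

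The Runt-domain factors Runx1 and Runx3 bind DNA with the partner Cbfb and control CD4 and CD8 expression. Runx1, whose row joins 4 transcripts, had 13.5 and 12.0 RPKM in the shCTCF libraries and 13.3 and 14.6 RPKM in the shLuc libraries. The groups overlapped, and the log2 change was -0.12 (SE 0.11, 95% interval -0.37 to 0.13, adjusted p = 0.71, limma). Runx3 (NM_019732) had 42.3 and 36.4 RPKM in the shCTCF libraries and 45.5 and 42.2 RPKM in the shLuc libraries. These overlapped too, by a narrow margin between shCTCF library 2 and shLuc library 3. Its log2 change was -0.16 (SE 0.10, 95% interval -0.38 to 0.07, adjusted p = 0.55, limma). The intervals of both include 0.

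Ets1 (NM_011808 and NM_001038642), the founding ETS-domain factor and a partner of Runx1 on T cell enhancers, had 54.8 and 51.9 RPKM in the shCTCF libraries, against 68.3 and 66.7 RPKM in the shLuc libraries. The groups were far apart compared with the spread inside them. The means were 53.4 ± 2.07 RPKM in shCTCF and 67.5 ± 1.10 RPKM in shLuc libraries (SD, n = 2 each), on 1206 and 1515 reads in shCTCF and 1810 and 2070 reads in shLuc. The log2 change was -0.33 (SE 0.08, 95% interval -0.51 to -0.15) and did not pass (adjusted p = 0.10, limma).

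Tox (NM_145711), an HMG-box protein needed for CD4 T cell development, had 65.7 and 62.7 RPKM in the shCTCF libraries and 65.8 and 71.7 RPKM in the shLuc libraries. The groups were separate by a narrow margin, and the log2 change was the smallest of the 9, -0.10 (SE 0.08, 95% interval -0.29 to 0.09, adjusted p = 0.68, limma). Ikzf1 (NM_009578 and NM_001025597) encodes Ikaros, a zinc finger protein that works with the NuRD complex. It had 428 and 418 RPKM in the shCTCF libraries and 472 and 473 RPKM in the shLuc libraries. Its groups were separate with little spread in shLuc, and the log2 change was -0.16 (SE 0.07, 95% interval -0.32 to 0.0043, adjusted p = 0.37, limma). Ikzf1 was second to Tcf7 and ranked 84 of the tested genes. Satb1, a genome organiser of thymocytes whose row also joins 4 transcripts, had 0.381 and 0.0574 RPKM in the shCTCF libraries and 0.0632 and 0.0810 RPKM in the shLuc libraries. That is 10 and 2 reads in shCTCF and 2 and 3 reads in shLuc libraries as the smallest whole numbers, so only shCTCF library 2 stood above the limit of 3 reads that a count of 0 allows.

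**Figure D3:**
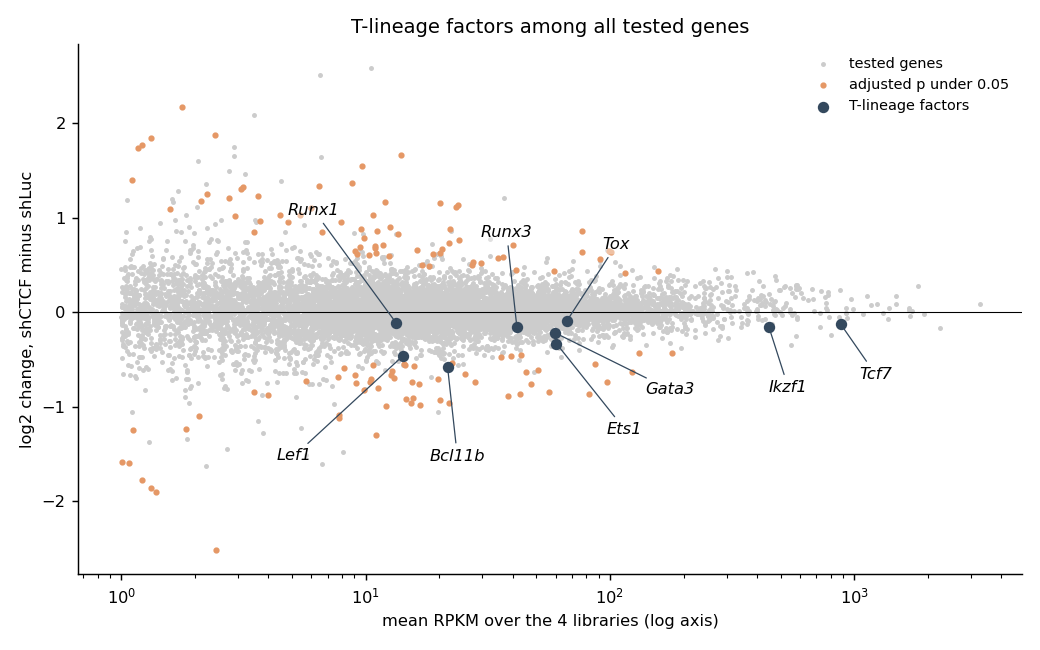
Log2 change, shCTCF minus shLuc (vertical axis), against mean RPKM over the 4 libraries (horizontal log axis) for all 9898 tested genes in grey, those with an adjusted p under 0.05 in orange and the 9 tested factors in dark blue. All 9 lie below 0, with Bcl11b (-0.58) and Lef1 (-0.46) the lowest of them.

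Since RPKM is per length, the factors can be ordered by level. In shCTCF libraries the order of mean RPKM (± SD, n = 2) was Tcf7 (842 ± 29.3), Ikzf1 (423 ± 7.03), Tox (64.2 ± 2.07), Gata3 (54.9 ± 0.0928), Ets1 (53.4 ± 2.07), Runx3 (39.3 ± 4.19), Bcl11b (17.2 ± 0.998), Runx1 (12.8 ± 1.07), Lef1 (11.8 ± 1.39) and Satb1. In shLuc libraries it was Tcf7 (921 ± 44.4), Ikzf1 (472 ± 1.19), Tox (68.7 ± 4.19), Ets1 (67.5 ± 1.10), Gata3 (63.9 ± 2.38), Runx3 (43.9 ± 2.31), Bcl11b (26.2 ± 1.52), Lef1 (16.7 ± 2.05), Runx1 (13.9 ± 0.952) and Satb1. Neighbours whose libraries overlapped were Gata3 with Ets1 and Runx1 with Lef1 in shCTCF, and Tox with Ets1 in shLuc. The libraries of all other neighbours in either order did not overlap.

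The authors' deposited table of changed genes listed 3 of the 10 factors, all lower, against 0.999% of 22119 rows listed as lower at an FDR under 0.05. Those rows include many genes of low expression, whereas 9 of the 10 factors were among the 9898 tested genes, so the shares cover unlike sets. It is built from the same libraries and is no independent measurement. In the authors' deposited table Bcl11b had a log2 fold change of -0.63 (FDR 7.1e-10) and ranked 26 of 435 by p-value. Ets1 had -0.35 (FDR 6.2e-04) and Lef1 -0.52 (FDR 0.018) in the authors' deposited table. Gata3, Tcf7, Runx1, Runx3, Tox, Ikzf1 and Satb1 were not among its rows. With the reads recovered from the RPKM values and limma-voom, Ets1 had a log2 change of -0.35 (adjusted p = 0.0083) and Lef1 of -0.52 (adjusted p = 0.022), so the call on both differs with the test. Bcl11b, whose joined row gave no whole reads, was added to that fit with approximate reads from the authors' deposited table, 560 and 807 in shCTCF and 1030 and 1309 in shLuc. It then had -0.62 (adjusted p = 7.2e-05, limma-voom), and 3 of 8 fitted factors were called lower, against 2.18% of 7555 genes. Bcl11b could be added only because the authors' deposited table lists it as changed, so this count is no separate support. Runx1, also without whole reads, was not listed there and was left out. Without Bcl11b, limma-voom with TMM scaling called 2 of 7 factors lower, against 164 of 7554 genes. The adjusted p of Gata3 in the limma-voom fit was 0.12.

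Genes that work with or beside the factors were read as lists, whose counts stand beside 0.596% of all tested genes called lower and 14.1% at an unadjusted p under 0.05 by limma, and 2.18% called lower by limma-voom. Of 20 other T-lineage transcription factors, 13 were tested and 0 passed (2 at an unadjusted p under 0.05, limma; limma-voom called 1 of 8), 9 had a negative change and the median was -0.08. The most abundant were the E protein Tcf12 at 105 ± 1.42 RPKM in shCTCF and 99.1 ± 0.183 RPKM in shLuc libraries, Myb at 77.6 ± 3.50 RPKM in shCTCF and 85.0 ± 3.55 RPKM in shLuc, and the E protein Tcf3 at 46.2 ± 2.01 RPKM in shCTCF and 50.9 ± 3.33 RPKM in shLuc libraries (SD, n = 2 each). Gfi1, a zinc finger repressor, was the gene limma-voom called (log2 change -0.46, adjusted p = 0.011) and had -0.46 (FDR 0.0022) in the authors' deposited table. Of 15 Notch pathway genes, 9 were tested, 8 had a negative change, and 0 passed or had an unadjusted p under 0.05 (limma; limma-voom called 0 of 6), with a median of -0.04. The receptor Notch2 averaged 40.1 ± 2.63 RPKM in shCTCF and 45.2 ± 2.17 RPKM in shLuc libraries. The DNA-binding effector Rbpj averaged 24.6 ± 0.931 RPKM in shCTCF and 24.1 ± 0.390 RPKM in shLuc. Below the filter, Notch1 averaged 0.149 ± 0.0296 RPKM in shCTCF and 0.0574 ± 0.0326 RPKM in shLuc libraries. Notch3, Hes5, Hey1 and Nrarp were listed at 0 in all libraries.

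Close relatives of the factors were next. Of 20 paralogues, 9 were tested and 0 passed (3 at an unadjusted p under 0.05, limma; limma-voom called 1 of 9, the low gene Tox2), with 6 negative and a median of -0.02. Among the Ikaros family, Ikzf2 (Helios) averaged 76.5 ± 4.56 RPKM in shCTCF and 75.0 ± 8.15 RPKM in shLuc libraries, and Ikzf3 (Aiolos) 55.6 ± 0.104 RPKM in shCTCF and 66.2 ± 1.60 RPKM in shLuc. Ikzf3 had a log2 change of -0.25 (adjusted p = 0.20, limma) and -0.26 (FDR 0.035) in the authors' deposited table. The ETS factor Fli1, the neighbour of Ets1 on the chromosome, averaged 30.1 ± 0.496 RPKM in shCTCF and 30.6 ± 1.95 RPKM in shLuc libraries. Over all genes, 14.1% had an unadjusted p under 0.05 and limma-voom called 2.18% lower. The 6 paralogues Bcl11a, Gata2, Gata4, Gata6, Tcf7l2 and Tox3 were listed at 0 in all libraries. Of 18 protein partners, 14 were tested, 7 were negative, and 0 passed or had an unadjusted p under 0.05 (limma; limma-voom called 0 of 11), with a median of 0.00. They include beta-catenin (Ctnnb1) at 259 ± 20.0 RPKM in shCTCF and 266 ± 7.20 RPKM in shLuc libraries, and the NuRD subunits Chd4 at 169.5 ± 0.0547 RPKM in shCTCF and 160.3 ± 0.312 RPKM in shLuc and Mta2 at 159 ± 2.15 RPKM in shCTCF and 157 ± 3.07 RPKM in shLuc.

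**Figure D4:**
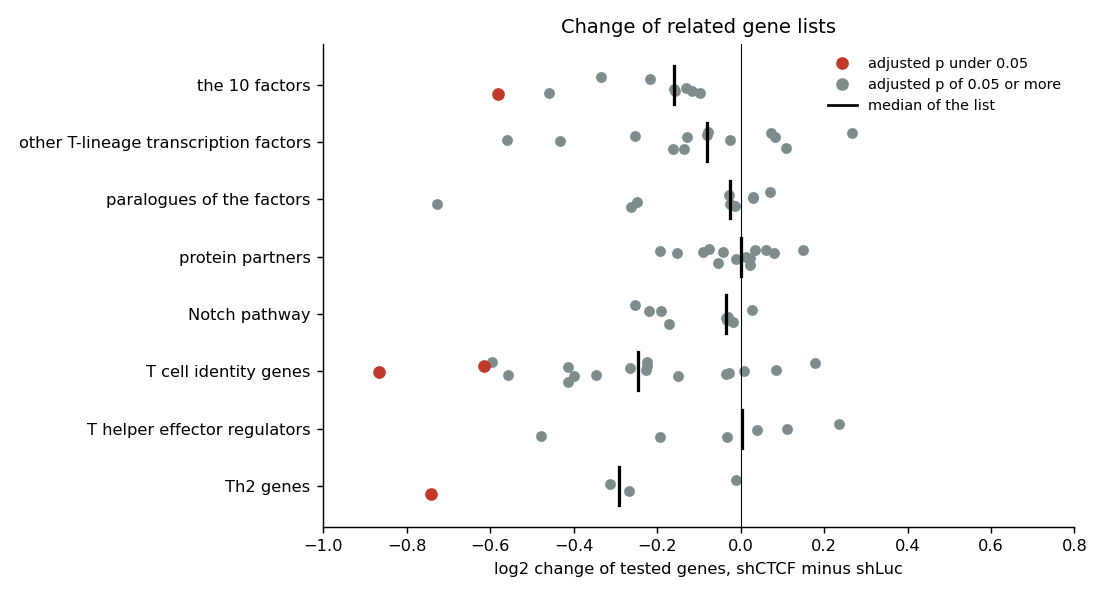
Log2 change of each tested gene, shCTCF minus shLuc (horizontal axis), in the 10 factors and 7 related lists (rows), with the median of each list as a black bar and genes with an adjusted p under 0.05 in red. Red points appear for Bcl11b, for 2 T cell identity genes, Ccr9 the lower of them, and for Ccr4 among the Th2 genes.

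Genes that T cells use at their surface and in receptor signalling were read last. Of 25 T cell identity genes, 18 were tested, 2 fell and 0 rose, 15 had a negative change, 11 had an unadjusted p under 0.05 (limma), and the median was -0.25. Over all tested genes 0.596% were called lower and 14.1% had an unadjusted p under 0.05. Limma-voom called 3 of 14 lower, Cd5, Il7r and Thy1, against 2.18% of all its genes. Ccr9, the chemokine receptor for homing to the gut, averaged 58.0 ± 4.41 RPKM in shCTCF and 107 ± 2.87 RPKM in shLuc libraries (log2 change -0.87, SE 0.08, adjusted p = 0.0075, limma). Of 10 Th2 genes, 4 were tested, 1 fell, against 0.596% of all tested genes, and 3 had an unadjusted p under 0.05, against 14.1% (limma), with a median of -0.29. Limma-voom called 1 of 4 lower, against 2.18% of all its genes. This was Ccr4, a chemokine receptor of T helper 2 cells, with 20.8 ± 1.69 RPKM in shCTCF and 35.5 ± 1.37 RPKM in shLuc libraries (log2 change -0.74, SE 0.09, adjusted p = 0.011, limma). Without either shLuc library Ccr9 and Ccr4 missed the threshold (adjusted p from 0.15 to 0.21), as did Ccr4 without shCTCF library 3 (0.068). Both also missed it without the filter on low values (adjusted p from 0.27 to 0.32), as did Ccr4 (0.055) without the variance trend. Of 13 T helper effector regulators, 6 were tested and 0 passed (2 at an unadjusted p under 0.05, limma; limma-voom called 1 of 5, Irf4, lower), with a median of 0.00. Id2 averaged 80.7 ± 3.95 RPKM in shCTCF and 82.8 ± 9.29 RPKM in shLuc libraries, Nfil3 21.9 ± 1.20 RPKM in shCTCF and 18.5 ± 0.761 RPKM in shLuc, and Rora 9.01 ± 0.675 RPKM in shCTCF and 8.73 ± 0.289 RPKM in shLuc.

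The genes whose values over the 4 libraries were most like those of Gata3 were found by the Euclidean distance of log2(RPKM + 1), each gene centred on its own mean, among 8108 genes that averaged at least 5 RPKM. They were Ncapd3, a condensin II subunit (distance 0.0111), Fam107b (0.0134), Rapgef2 (0.0276), Nfx1 (0.0285) and a joined row of Dtx3l and Parp9 (0.0302). The same measure gave, for Bcl11b, the phosphatase Dusp12 (0.0280), Tmem154 (0.0703), the tRNA methyltransferase Mettl1 (0.0895) and Rassf5 (0.0917). The measure spans 4 libraries in 2 groups and is a description.

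Genes next to the factors were read by gene order in RefSeq, from a rule added after the values of the factors were seen. On each side of the 10 factors the nearest tested protein-coding gene was taken, 20 in all, 12 of them with no gene between. Of these 0 passed (4 at an unadjusted p under 0.05, limma, smallest adjusted p 0.15; limma-voom called 1 of 16, Clic4, higher, against 2.01% of all its genes), 7 had a negative change, and the median was 0.06, with a range from -0.27 for Kat2b to 0.39 for Clic4. The 4 of 20 stand beside 14.1% of all tested genes at an unadjusted p under 0.05. Vdac1, beside Tcf7, and Clic4, beside Runx3, were also rows of the authors' deposited table, which lists 435 of 22119 rows. Their log2 changes by limma were positive, 0.24 for Vdac1 and 0.39 for Clic4. Around Bcl11b, Vrk1 (2 genes between) had a log2 change of 0.06 and Setd3 of 0.16. Beside Gata3, Celf2 had -0.14 and Taf3 0.04. Around Ets1, Fli1 had -0.02 and Dcps (2 genes between) -0.05, and around Lef1, Ostc (1 gene between) had -0.02 and Hadh 0.05. The differences between a factor and its neighbours were not tested.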

How the data were processed

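Libraries of poly(A) RNA from EL4 cells with an shCTCF or shLuc hairpin were grouped by sample title. Reads were aligned with Bowtie2 to mm9, per the submitters' processing notes. Versions, the counter and the annotation were not given in the sources used here. RPKM values for 22119 rows were deposited by the authors, and every per-sample column was used. Their table of 435 changed genes adds, per the file headers, a p-value with its FDR, log2 fold changes and a mean CPM as log2. The full table heads the libraries of each hairpin 2 and 3, the titles 1 and 2, so libraries served as replicates of their hairpin under the table's numbers.

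The 9898 genes that averaged at least 1 RPKM were tested as log2(RPKM + 1) in R 4.3.3 by limma 3.58.1 (lmFit, trended eBayes), two-sided, with Benjamini-Hochberg adjustment over all 9898 and a threshold of 0.05. The log2(RPKM + 1) scale understates changes of low genes. Whole reads were recovered from 98.6% of 7035 single-transcript rows and 22.3% of 2905 joined rows (relative tolerance 3e-11). They rest on a common factor taken from the RPKM values themselves, and served for depth and limma-voom. The authors' deposited log2 mean CPM differed from theirs by a median of 0.014 (SD 0.50, 320 rows). One read on 1 kb was worth 0.230 and 0.173 RPKM in shCTCF and 0.191 and 0.163 RPKM in shLuc libraries. The 95% intervals are those of limma and rest on the spread between libraries, with the variance drawn in part from other genes. The floor of 3 reads covers counting error only. The 10 factors and all lists were chosen with earlier results of these data known, so list counts and medians are descriptions. Named genes were all 10 factors, Ctcf, and in each list those past the threshold or else up to 3 of the highest mean RPKM. Notch1, Gzmb, Ncr1, Klrb1c and the genes called by limma-voom or listed at 0 were named after their values were seen. A few genes that these rules took are not reported here. Python 3.11.15, numpy 2.4.6, pandas 2.3.3 and matplotlib 3.10.9 were used.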

Additional observations from a re-analysis of the deposited data

How the results depend on the processing

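With 2 libraries per hairpin, leaving one out assumes that the lone library varies like the other group. Of 69 genes called higher and 59 lower, limma with no filter on low values called 0 and 0 (1619 at an unadjusted p under 0.05), without the variance trend 33 and 27, and with one library left out 0 to 49 and 0 to 35. Limma-voom on recovered reads called 152 higher and 164 lower with TMM, and 152 and 165 with median ratios or with Bcl11b added. For the factors, 1 called lower became 0 with no filter (3 at an unadjusted p under 0.05), 0 without the trend, 0 to 0 with one library left out, 2 with either voom scaling and 3 with Bcl11b added, a setting chosen after seeing the data. Their median moved to -0.23 with quantile normalization and lay between -0.21 and -0.14 with one library left out. Ctcf had -0.89 with no filter (adjusted p = 0.22) and -0.92 to -0.86 with one library left out. With the replicate block, 294 genes were called higher, 213 lower, and 2 factors lower; same-numbered libraries correlated at 0.165 in their deviations over 9898 genes, and with 2 pairs the number alone does not pair them. No tested factor changed sign under the alternatives that could be fitted for it (13 to 16). Of 35 single genes followed, 19 of the values under alternatives changed sign, all of them small. Mta2 turned to -0.0060 and Il2rb to -0.031 with quantile normalization, and Il2rb to -0.0045 with centred libraries. With one library left out the ranges were -0.0087 to 0.066 for Rbpj, -0.079 to 0.14 for Ikzf2, -0.087 to 0.039 for Fli1, -0.12 to 0.037 for Ctnnb1, -0.15 to 0.082 for Id2, -0.029 to 0.11 for Rora, -0.064 to 0.20 for Erg, -0.062 to 0.0043 for Cd3g, -0.021 to 0.35 for Fcer1g, -0.10 to 0.11 for Il2rb, -0.098 to 0.086 for Cd160 and -0.43 to 0.057 for Itgam. The cause was not tested.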

Other observations

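In mouse T cells, loss of Bcl11b is known to bring out genes of natural killer and innate lymphoid cells, and these and early progenitor regulators were read as values. Of 12 natural killer and innate lymphoid markers, 3 were tested and 0 passed or had an unadjusted p under 0.05 (limma; limma-voom called 0 of 2). Fcer1g, a signalling chain of Fc receptors, averaged 40.6 ± 2.98 RPKM in shCTCF and 36.4 ± 6.73 RPKM in shLuc libraries, Il2rb 2.25 ± 0.280 RPKM in shCTCF and 2.24 ± 0.341 RPKM in shLuc, and Cd160 1.87 ± 0.259 RPKM in shCTCF and 1.88 ± 0.132 RPKM in shLuc libraries (SD, n = 2 each). Klrd1, Nkg7 and Klrk1 were listed at 0 in all libraries. Below the filter and not tested, Gzmb had 6 and 5 reads in shCTCF and 3 and 1 reads in shLuc libraries. Ncr1 had 1 and 1 reads in shCTCF and 0 and 0 in shLuc. Klrb1c went the other way, with 0 and 0 reads in shCTCF and 1 and 2 in shLuc. The 12 genes summed to 44.8 and 48.0 RPKM in shCTCF and 36.8 and 45.8 RPKM in shLuc libraries. Most of each sum was Fcer1g, with 38.5 and 42.7 RPKM in shCTCF and 31.6 and 41.1 RPKM in shLuc libraries. Of 13 early progenitor regulators, 1 was tested, the ETS factor Erg, at 2.02 ± 0.0854 RPKM in shCTCF and 1.89 ± 0.378 RPKM in shLuc libraries (adjusted p = 0.93, limma). Hoxa9 averaged 0.521 ± 0.450 RPKM in shCTCF and 0.270 ± 0.0248 RPKM in shLuc libraries, and Lyl1 0.160 ± 0.0458 RPKM in shCTCF and 0.287 ± 0.106 RPKM in shLuc libraries.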
